A study of Mus musculus with 7 samples.

Results

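The MYC, MAX and MXD network was followed through 9 genes, Myc, Mycn, Max, Mxd1, Mxd3, Mxd4, Mxi1, Mnt and Mlx, by mRNA sequencing of 7 lines of mouse esophageal epithelium. The 9 were chosen by symbol from the 23955 gene names of the count table, and all 9 passed the expression filter that 13768 genes passed. There were 2 wild-type lines (WT 1 and WT 2), 3 lines that carried the p53R172H point mutation (mutant 1, 2 and 3) and 2 lines lacking p53 (p53 -/-, null 1 and null 3). All mutant and null lines carried the treatment label 4NQO, a chemical carcinogen of the esophagus, while the WT lines had no treatment label. All lines were of mixed strain background and were kept in keratinocyte serum-free medium on plastic. Neither dose nor time of 4NQO, nor the age or number of the animals behind the lines, was given. Each p-value therefore rests on line-to-line spread, which may be technical.

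MYC is a basic helix-loop-helix leucine zipper transcription factor that binds E-box DNA as a dimer with MAX and drives genes for ribosome making, translation and cell growth. MAX also pairs with the MXD proteins, MXI1, MNT and MGA, which recruit SIN3 or other repressor complexes to the same E-boxes, so that the balance of partners sets the output. MLX is a MAX-like protein that pairs with the glucose-responsive factors MLXIP (MondoA) and MLXIPL (ChREBP) and with some MXD proteins. In stratified epithelia MYC is linked to basal cell growth, and MXD1 to the exit from the cycle and to differentiation.

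The canonical E-box, CACGTG, is the sequence that ties this network together, so the promoters of the members were searched for it in the RefSeq table (build GRCm38.p6). Of the 9 members 8 had an entry, and Myc had none. The 250 bases before the start site held CACGTG, which reads the same on both strands, in 3 of the 8. This count is by gene, and Mxi1 had 3 promoter entries where each other matched member had 1. Counted by entry, 6.02% of 32851 promoters of the same length held the motif, so these shares are in unlike units. All 3 stretches are shown, with the motif in capitals and 27 bases on each side. Of these members, Mnt lay higher in every p53-altered line, and Mlx and Mxd4 were 2 of the steadiest. The Mnt stretch is chr11:74830774-74830833 on the plus strand, the Mlx stretch chr11:101087223-101087282 on the plus strand, and the Mxd4 stretch chr5:34187897-34187956 on the minus strand.
Mnt: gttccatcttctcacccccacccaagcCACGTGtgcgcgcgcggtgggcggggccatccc
Mlx: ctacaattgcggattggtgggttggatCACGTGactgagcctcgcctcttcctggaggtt
Mxd4: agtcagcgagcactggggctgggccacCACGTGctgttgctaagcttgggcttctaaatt
The motif began 123 bases before the start site in Mnt, 40 in Mlx and 219 in Mxd4. Mycn, Max, Mxd1, Mxd3 and Mxi1 had no CACGTG in this window, which says only that these letters were absent there.

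The libraries held 12751118 to 47000225 counts, and levels are given as CPM, the counts scaled to a common library size with TMM factors. Trp53, the targeted gene, was at 172 to 254 CPM in the WT and mutant lines and at 8.73 and 4.71 CPM in the null lines. Xist was at 675 and 1652 CPM in the WT lines and at most 0.964 CPM elsewhere, so genotype, 4NQO label and Xist all separated WT from the other lines and cannot be told apart. All 14 epithelial markers were detected in every library except Krt4, at 0 in mutant 2, and their mean log2 ratio to WT was -0.96 to -1.71 in the 5 p53-altered lines. The summed level of 12 fibroblast markers was 139 and 290 CPM in WT, 688 to 4426 CPM in mutant and 320 and 2901 CPM in null lines. Endothelial markers summed to at most 2.16 CPM. The 8 immune markers summed to 23.5 to 92.0 CPM, of which Cd68 alone was 22.5 to 91.8 CPM. Each of the others was at most 0.753 CPM, and 2 to 6 of the 8 were at 0 in a library, with Cd3e at 0 in all 7.

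No member was called in any comparison. At a Benjamini-Hochberg adjusted p under 0.05 by edgeR's quasi-likelihood test, 0 of 9 were called in mutant against WT, where 7.42% of all genes were, 0 of 9 in null against WT, where 0.138% were, and 0 of 9 in mutant against null, where 0% were. At an unadjusted p under 0.05 there were 2, 1 and 2 members, against 30.5%, 20.2% and 14% of all genes. DESeq2 called 1 member in each comparison, Mxd1, Mnt and Mxd1 in turn, against 23.2%, 11.3% and 4.39% of all genes. Groups did not overlap for 4 of 9 members in mutant against WT, against 52.6% of genes, with 2 higher (26.9% of genes) and 2 lower (25.7%). In null against WT they did not overlap for 3, against 56.1% of genes, with 1 higher (29.1%) and 2 lower (27%). In mutant against null they did not overlap for 3, against 31.1% of genes, with 2 higher (16%) and 1 lower (15.1%). By these shares the members lay near or below all genes in mutant against WT and null against WT by edgeR. In these bulk samples fewer cells of a type and less RNA per cell cannot be told apart. The comparisons share lines, WT in the first 2 and mutant or null lines in the third.

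**Figure D1:**
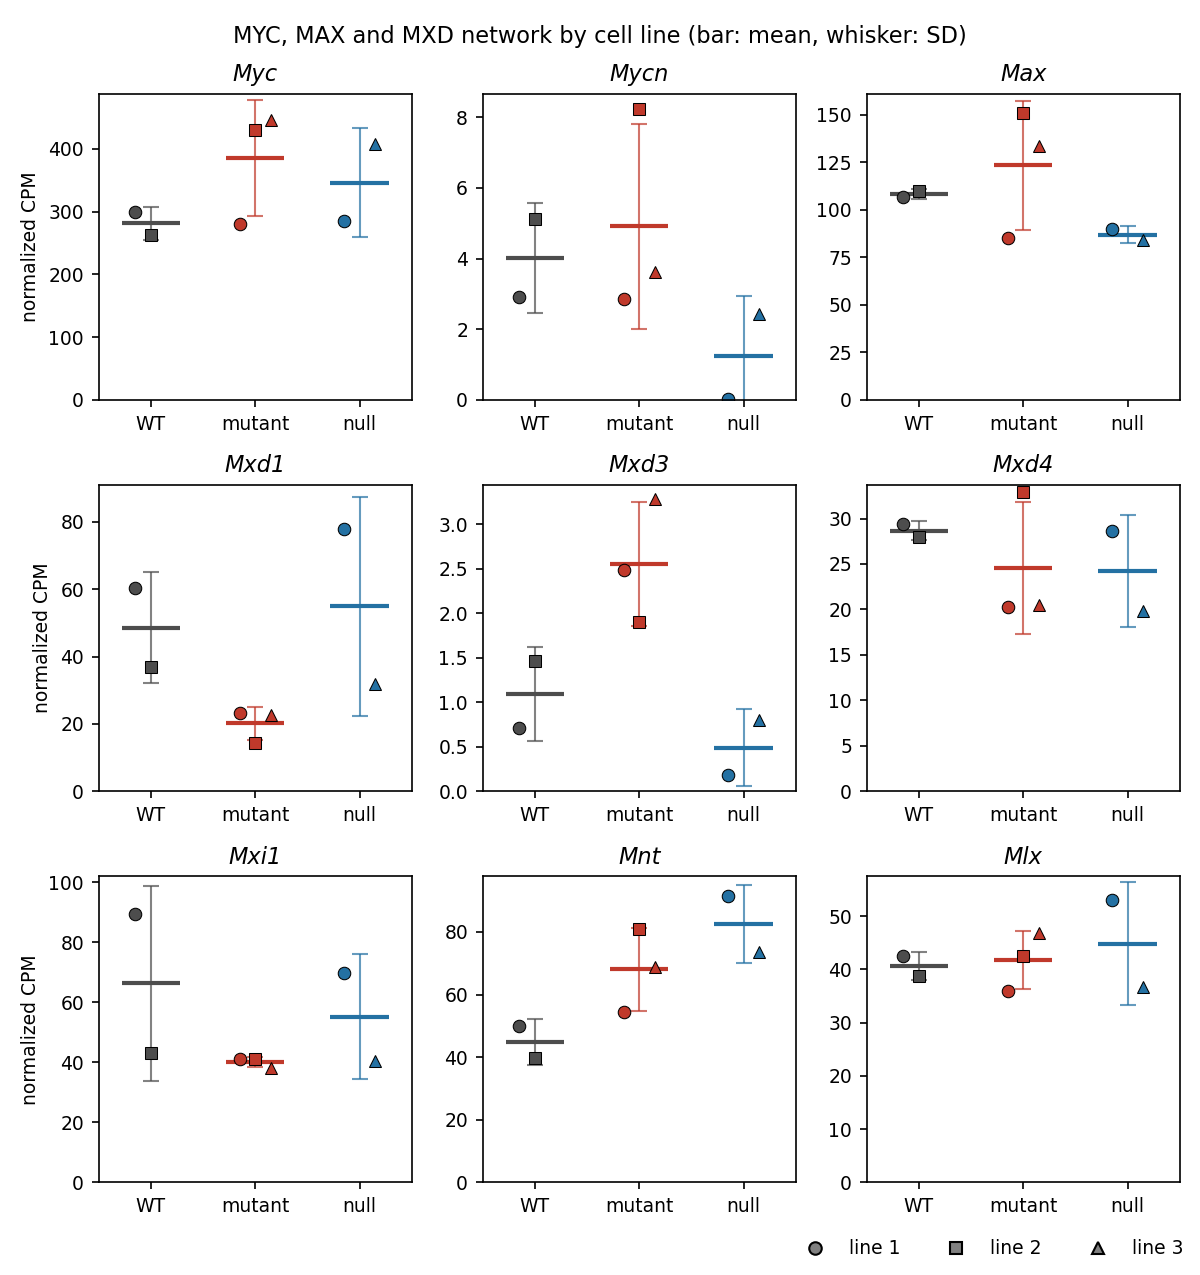
Normalized CPM (y axis, from 0) of the 9 network genes in WT (n = 2), mutant (n = 3) and null (n = 2) lines, with circles, squares and triangles for lines 1, 2 and 3, bars for the mean and whiskers for the SD. Mnt lies above both WT lines in all 5 p53-altered lines, Mxd1 is lowest in the 3 mutant lines (14.4 to 23.3 CPM), and Mycn is near 0 in null 1.

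Myc itself, the growth-promoting oncogene product, varied little. It stood at 300.02 and 263 CPM in WT 1 and WT 2, at 280.1, 429.96 and 447 CPM in mutant 1, 2 and 3, and at 285 and 408 CPM in null 1 and null 3. Mutant 2, mutant 3 and null 3 were above both WT lines, whereas mutant 1 and null 1 lay between them. The highest level was 1.70 times the lowest. Mutant against WT gave a log2 fold change of 0.45 (95% interval -0.18 to 1.09, adjusted p = 0.287), null against WT 0.30 (-0.39 to 0.98, adjusted p = 0.581) and mutant against null 0.16 (-0.47 to 0.78, adjusted p = 0.818). A log2 difference of 1 lay outside the interval of mutant against null, just outside that of null against WT, and just inside that of mutant against WT. Null against WT was 0.53 without null 1 and 0.02 without null 3. The 3 genes most like Myc across the 7 libraries, by Pearson correlation of log2 CPM among 10130 genes with a mean of at least 5 CPM, were Rnf146 (0.98), Kat8 (0.97) and Acvr2a (0.97). These are the top of a large search over 7 points from 3 groups, and no p is given.

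Mycn, the MYC paralog of embryonic and neural tissue, was rare. It had 86 and 63 counts in WT (2.93 and 5.11 CPM), 141, 347 and 158 in mutant (2.87, 8.23 and 3.62 CPM), but 1 count in null 1 (0.0304 CPM) beside 64 in null 3 (2.43 CPM). Null 1 stood apart from the other 6 libraries, and mutant 2 was the highest. The log2 fold change was -1.71 in null against WT (95% interval -5.18 to 1.76, adjusted p = 0.528) and 0.29 in mutant against WT (-2.79 to 3.37, adjusted p = 0.895). In mutant against null it was 2.00 (-1.31 to 5.31, adjusted p = 0.533). Null 1 set the size of both values with null lines, since without it they were -0.72 against WT and 1.02 for mutant against null, and without null 3 they were -6.88 and 7.18.

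Mycl, the MYC paralog first described in lung cancer and not one of the 9, was the gene of the MYC family that edgeR called. The call was in mutant against WT, where 4.13% of all genes were called lower. Mycl was at 29.7 and 30.8 CPM in WT, 5.47, 6.74 and 10.3 CPM in mutant, and 18.5 and 12.7 CPM in null lines. The 3 groups did not overlap, with WT highest and mutant lowest. Mycl fell in mutant against WT (log2 fold change -2.01, SE 0.334, adjusted p = 0.0286), and stood at -0.95 in null against WT (SE 0.372, adjusted p = 0.226) and -1.06 in mutant against null (SE 0.332, adjusted p = 0.294). The call was lost without WT 1 (adjusted p = 0.13), without WT 2 (0.203), without mutant 2 (0.0771) and without mutant 3 (0.0746), with log2 fold changes from -2.33 to -1.97. With the replicate number as a block its adjusted p was 0.133. Epithelial markers were also lower in all 5 p53-altered lines, and their part in this difference was not tested.

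Max, the shared dimer partner, was at 106 and 110.1 CPM in WT, 85.4, 151 and 134 CPM in mutant, and 90.1 and 83.8 CPM in null lines. Both null lines lay below both WT lines, and mutant 1 lay among the null lines while mutant 2 and 3 were the highest. The log2 fold change was 0.19 in mutant against WT (adjusted p = 0.626), -0.32 in null against WT (adjusted p = 0.526) and 0.50 in mutant against null (95% interval -0.08 to 1.09, adjusted p = 0.403). The first of these was -0.0079 without mutant 2.

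Among the antagonists, Mnt, the broadly expressed repressor partner of MAX, was at 50.004 and 39.8 CPM in WT, 54.3, 81.0 and 68.8 CPM in mutant, and 91.4 and 73.7 CPM in null lines. All 5 p53-altered lines were above both WT lines, though mutant 1 exceeded WT 1 by little. Null against WT gave a log2 fold change of 0.88 (SE 0.246, 95% interval 0.29 to 1.46, unadjusted p = 0.00984, adjusted p = 0.147), with 82.5 ± 12.5 CPM (SD, n = 2) against 44.9 ± 7.23 CPM (n = 2). In mutant against WT it was 0.60 (SE 0.227, 95% interval 0.06 to 1.14, adjusted p = 0.134), with 68.1 ± 13.4 CPM (n = 3). Mutant and null lines differed by -0.28 (-0.81 to 0.25, adjusted p = 0.591). Epithelial markers separated WT from the other lines too, and their part was not tested. Over the alternative settings Mnt stayed above 0 in both comparisons with WT, at 0.71 to 1.06 in null and 0.43 to 0.78 in mutant, and DESeq2 called it in null against WT (adjusted p = 0.0209).

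Mxd1, the antagonist tied to terminal differentiation, was at 60.2 and 36.9 CPM in WT, 23.3, 14.4 and 22.6 CPM in mutant, and 77.9 and 31.9 CPM in null lines. Every mutant line was below every WT and null line, and the WT and null ranges overlapped. The mean epithelial marker ratio was lowest in the mutant lines too, between -1.71 (mutant 2) and -1.30 (mutant 1). Null 3 stood at -1.21 on that scale. Null 1 stood at -0.96, below WT, although its Mxd1 level was above both WT lines. What part these markers had in the Mxd1 values was not tested. Mutant against WT gave a log2 fold change of -1.27 (SE 0.427, 95% interval -2.29 to -0.25, adjusted p = 0.107) and mutant against null -1.45 (SE 0.427, -2.47 to -0.43, unadjusted p = 0.0124, adjusted p = 0.287). In null against WT it was 0.17 (-0.96 to 1.31, adjusted p = 0.858). DESeq2 called the 2 comparisons with mutant lines (adjusted p = 0.0254 against WT and 0.0343 against null). Null 1 carried much of the difference from null lines, which was -0.66 without it, and the value against WT was -0.87 without WT 1.

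Mxd3, the MXD protein known from cycling cells in S phase, ran the other way at low counts. It had 21 and 18 counts in WT (0.714 and 1.46 CPM), 122, 80 and 143 in mutant (2.48, 1.90 and 3.28 CPM), and 6 and 21 in null lines (0.183 and 0.797 CPM). The 3 mutant lines were above all other lines, and null 1 was the lowest. The log2 fold change was 1.24 in mutant against WT (adjusted p = 0.323), -1.14 in null against WT (adjusted p = 0.477) and 2.38 in mutant against null (SE 0.837, 95% interval 0.38 to 4.38, adjusted p = 0.313), the last 1.68 without null 1 and 3.79 without null 3. Null against WT was -0.43 without null 1, -0.56 without WT 2 and -2.53 without null 3, and mutant against WT was 0.81 without WT 1. Mitosis genes moved with it in part: 15 of them averaged log2 ratios of -2.96 in null 1, -0.72 in null 3, 0.01, -0.47 and 0.05 in mutant 1, 2 and 3, and -0.52 and 0.52 in the WT lines. Their part in the result was not tested. In GENCODE M21 an exon of Mxd3 overlaps Prelid1 on the opposite strand, which had 3589 to 17166 counts, and the strand setting of the counting is not given, so reads of the 2 genes may be mixed.

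Mxd4 and Mxi1, antagonists expressed in many resting and differentiated cells, overlapped between most groups. Mxd4 ranged from 19.8 CPM in null 3 to 32.9 CPM in mutant 2, with 29.4 and 27.9 CPM in WT, and its log2 fold changes were -0.22, -0.25 and 0.02 in mutant against WT, null against WT and mutant against null, the last of either sign across settings. Mxi1 was at 89.3 and 43.3 CPM in WT, 41.2, 41.002 and 38.2 CPM in mutant, and 69.9 and 40.4 CPM in null lines. The mutant lines lay close together below both WT lines, while WT 1 and null 1 were high. Its log2 fold change in mutant against WT was -0.73 (95% interval -1.55 to 0.10, adjusted p = 0.208), and -0.10 without WT 1. WT 1 and null 1 were also the 2 highest lines for Mxd1. The mitosis ratio was lower in WT 1 than in WT 2 and lower in null 1 than in null 3, and its part in these values was not tested.

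**Figure D2:**
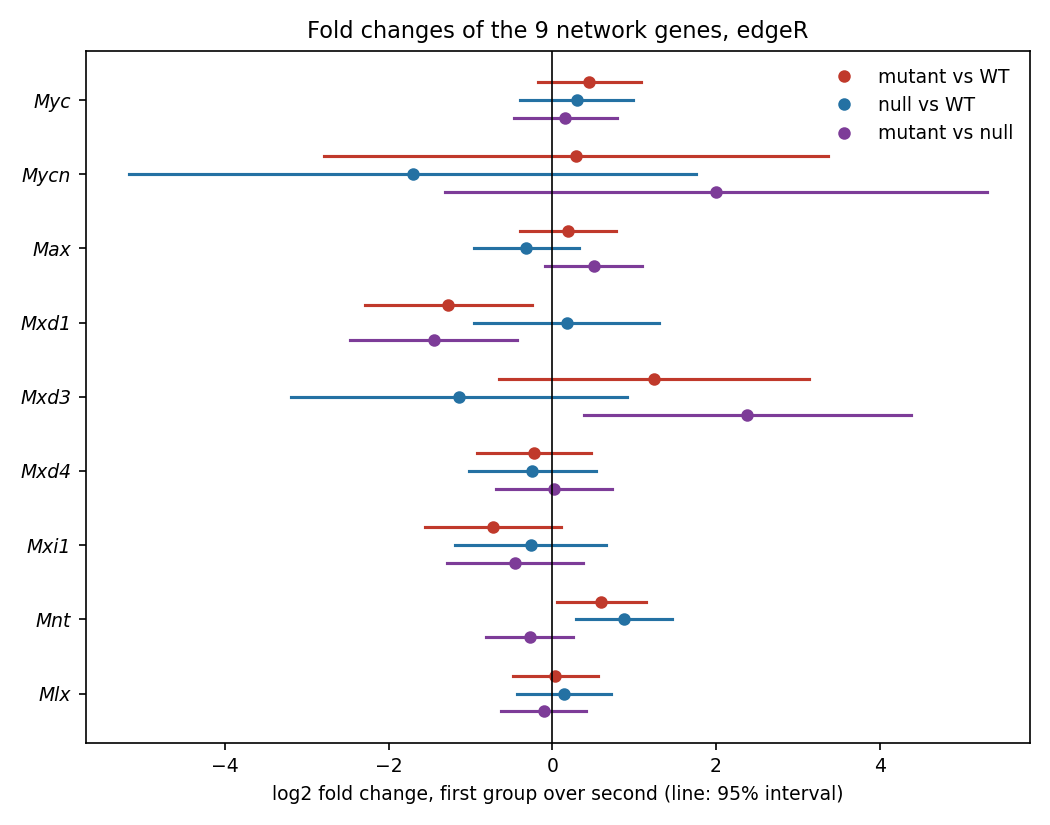
Log2 fold changes (x axis, first group over second) of the 9 network genes by edgeR in the 3 comparisons, with points for estimates and lines for 95% intervals. Intervals that leave out 0 are those of Mnt in both comparisons with WT, Mxd1 in both comparisons with mutant lines, and Mxd3 in mutant against null, none of which passed at an adjusted p under 0.05.

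Mga, the large dual-specificity partner of MAX and not one of the 9, was at 85.7 and 90.2 CPM in WT, 150.5, 164 and 166 CPM in mutant, and 95.7 and 213 CPM in null lines. All 5 p53-altered lines lay above both WT lines, null 1 by little. Mutant against WT gave 0.87 on the log2 scale (SE 0.321, adjusted p = 0.128) and 0.81 in null against WT (SE 0.344, adjusted p = 0.250). The latter was 0.12 without null 3 and 1.28 without null 1. A fit of mutant and WT lines alone called it (adjusted p = 0.0241).

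Levels per kilobase of exon, from GENCODE M21 gene lengths (GRCm38), set the members in order within each group. In WT lines Myc was first at 115 ± 10.6 CPM per kb (SD, n = 2), then Max at 55.3 ± 1.32 and Mlx at 20.4 ± 1.30. Mxd1 (10.4 ± 3.53), Mxi1 (9.96 ± 4.89) and Mnt (9.78 ± 1.57) did not differ beyond their spread, and Mxd4 was at 7.39 ± 0.272, inside the range of Mxi1 and below both WT values of Mxd1. Mycn (1.43 ± 0.552) and Mxd3 (0.820 ± 0.398) were last and overlapped. In mutant lines the first 3 places were the same, and Mnt was the highest antagonist at 14.8 ± 2.91 CPM per kb (n = 3), above Mxd4 (6.33 ± 1.87), Mxi1 (6.03 ± 0.253) and Mxd1 (4.31 ± 1.06) without overlap. In null lines Mnt was at 18.0 ± 2.72 CPM per kb (n = 2) and Mxd1 at 11.8 ± 6.96, with overlapping ranges. With the longest transcript as the length, the mean of Mxi1 was 13.2 CPM per kb in WT, the highest of the antagonists there. Its WT lines were far apart (89.3 CPM in WT 1 and 43.3 CPM in WT 2), so this place was not beyond their spread.

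Mlx, the dimer partner of the glucose sensors, was the steadiest member. It was at 42.5 and 38.8 CPM in WT, 35.9, 42.4 and 46.8 CPM in mutant, and 53.0 and 36.7 CPM in null lines, a highest to lowest ratio of 1.48. All groups overlapped, and the log2 fold changes were 0.04, 0.14 and -0.10 in mutant against WT, null against WT and mutant against null, with 95% intervals within -0.62 and 0.71. Exons of Mlx overlap Psmc3ip on the opposite strand in GENCODE M21, which had 72 to 932 counts. Its partner Mlxip was at 68.8 and 81.4 CPM in WT, 61.1, 53.8 and 57.5 CPM in mutant, and 80.3 and 77.5 CPM in null lines, with the mutant lines lowest (-0.39 against WT, adjusted p = 0.134; -0.46 against null, adjusted p = 0.297). Mlxipl had 1 to 14 counts per library and was not tested.

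Of 3 listed genes that MLX and its partners activate, the 2 tested, Txnip and Arrdc4, varied far more than Mlx. Pklr, the other gene listed, did not pass the filter and was at 0 in WT 1, mutant 2, mutant 3 and null 3. Txnip, which encodes an inhibitor of glucose uptake, was at 303 and 380.3 CPM in WT, 53.3, 872 and 1230.1 CPM in mutant, and 45.1 and 35.2 CPM in null lines. Mutant 2 and mutant 3 were above WT and mutant 1 sat with the null lines, so the mutant group spanned WT. The log2 fold change was -3.09 in null against WT (SE 1.19, 95% interval -5.93 to -0.25, adjusted p = 0.223), 1.07 in mutant against WT (SE 1.04, adjusted p = 0.507) and 4.16 in mutant against null (SE 1.21, 95% interval 1.27 to 7.06, adjusted p = 0.287). Without mutant 1, Txnip was called in mutant against WT (1.60, adjusted p = 0.0276), whereas the value was 0.41 without mutant 3, 0.36 with the replicate block and 0.19 in limma-voom. Fits of null and WT lines alone (adjusted p = 0.0498) and DESeq2 in mutant against null (adjusted p = 0.0139) called it too. Arrdc4, its arrestin-family relative, kept the same order of groups, at 52.1 and 55.4 CPM in WT, 16.3, 104 and 117 CPM in mutant, and 18.0 and 29.9 CPM in null lines. No group difference of Arrdc4 was called (adjusted p = 0.631, 0.435 and 0.377). Both genes were high in mutant 2 and 3 and low in mutant 1 and the null lines. The Txnip promoter window held no CACGTG. The Arrdc4 window held 1, 193 bases before the start (chr7:68749399-68749458, minus strand, GRCm38.p6), which is shown.
Arrdc4: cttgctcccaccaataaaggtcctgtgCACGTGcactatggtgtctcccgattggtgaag

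**Figure D3:**
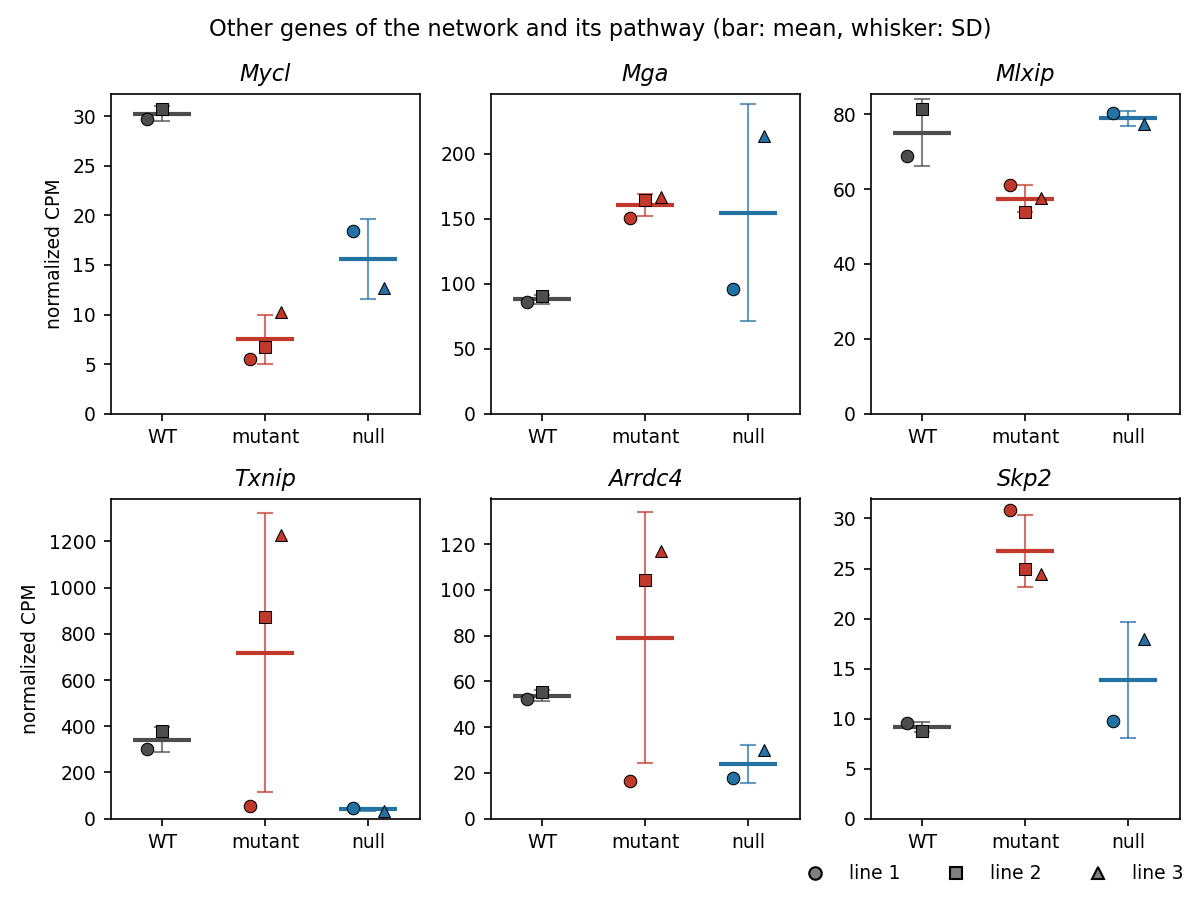
Normalized CPM (y axis, from 0) of Mycl, Mga, Mlxip, Txnip, Arrdc4 and Skp2 in the 7 lines, with circles, squares and triangles for lines 1, 2 and 3, bars for the mean and whiskers for the SD. Mycl is lowest in the mutant lines, and Txnip and Arrdc4 are high in mutant 2 and 3 but low in mutant 1 and both null lines.

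Of 15 co-repressors and co-activators that these dimers recruit (among them Sin3a, Sin3b, Hdac1, Trrap and Wdr5), none was called by edgeR in any comparison. At an unadjusted p under 0.05 there were 0, 2 and 2 for mutant against WT, null against WT and mutant against null, beside 30.5%, 20.2% and 14% of all genes. Single lines still differed, as in Sin3b, a scaffold of the repressor complex picked after its values were seen, which ran from 110 CPM in mutant 1 to 257 CPM in null 1. DESeq2 called 0, 2 and 0 of the 15, beside 23.2%, 11.3% and 4.39% of all genes. Their median log2 fold changes were -0.02, -0.06 and 0.04, beside 0.08, 0.06 and 0.02 over all genes tested. Named by the smallest p-values were Ruvbl1 in mutant against WT (0.49, adjusted p = 0.176) and the deacetylase Hdac2 and the SWI/SNF subunit Smarcb1 in null against WT (-0.73 and -0.50, adjusted p = 0.151 and 0.155). In mutant against null they were Smarcb1 and Ruvbl1 (0.46 and 0.64, adjusted p = 0.287 and 0.301).

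Of 17 genes that act on MYC protein or its transcription, 1 rose and none fell in mutant against WT. Of all genes 3.3% rose and 4.13% fell there, and none of the 17 was called in the other comparisons. At an unadjusted p under 0.05 there were 2, 1 and 5 of the 17, beside 30.5%, 20.2% and 14% of all genes. By DESeq2 the calls were 2, 0 and 2, beside 23.2%, 11.3% and 4.39% of all genes. The medians were 0.23, 0.03 and 0.18. Skp2, a subunit of a ubiquitin ligase that targets MYC and p27, was at 9.52 and 8.77 CPM in WT, 30.9, 25.0 and 24.4 CPM in mutant, and 9.77 and 18.0 CPM in null lines. It rose in mutant against WT (log2 fold change 1.55, SE 0.324, adjusted p = 0.0425), and the call was lost without any 1 of the 5 WT and mutant lines (adjusted p = 0.0597 to 0.262, log2 fold changes 1.41 to 1.62) and in limma-voom (0.0625). In null against WT the smallest p-values were those of the kinase gene Pim3 (0.59, adjusted p = 0.217) and of Cip2a, listed as C330027C09Rik, whose product protects MYC from dephosphorylation (-1.21, adjusted p = 0.284). The ligase gene Huwe1 and Pim3 had the smallest p-values in mutant against null (-0.97 and -0.85, adjusted p = 0.258 and 0.269).

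Genes that MYC is known to activate in ribosome making, translation and growth showed no common direction against WT. Of 41, 3 rose and 1 fell in mutant against WT, beside 3.3% and 4.13% of all genes. The median log2 fold change there was 0.18, with 24 above 0. None was called in null against WT (median -0.20, 15 above 0) or in mutant against null (median 0.39, 34 above 0). Over all genes 54.4%, 53.6% and 51.3% were above 0. At an unadjusted p under 0.05 there were 9, 9 and 14 of the 41, beside 30.5%, 20.2% and 14% of all genes. DESeq2 called 6 in null against WT and 3 in mutant against null, beside 11.3% and 4.39% of all genes. Relative to WT the list averaged, in log2 units, -0.07 and 0.07 in WT lines, -0.01, 0.16 and 0.26 in mutant, and -0.13 and -0.09 in null lines.

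The members that rose were Mrto4, a ribosome assembly factor (1.35, SE 0.174, adjusted p = 0.0212), Srm, spermidine synthase (1.12, SE 0.156, adjusted p = 0.0224), and Eif4e, the cap-binding initiation factor (1.37, SE 0.303, adjusted p = 0.0463). Mrto4 was at 33.0 and 33.6 CPM in WT, 72.3 to 96.7 CPM in mutant and 64.4 and 66.0 CPM in null lines, so all 5 p53-altered lines were above both WT lines. Cad, the first enzymes of pyrimidine synthesis, fell (-1.13, SE 0.233, adjusted p = 0.0408), at 123 and 197 CPM in WT and 61.3 to 83.8 CPM in mutant. Odc1, ornithine decarboxylase, was at 259.5 and 379 CPM in WT, 177, 289 and 270.5 CPM in mutant, and 129 and 134 CPM in null lines (-1.28 in null against WT, adjusted p = 0.115). Ncl, nucleolin, ranged from 1617 to 2312 CPM, with the lowest level in null 3 and no group difference called. In null against WT Mrto4 and Shmt2, mitochondrial serine hydroxymethyltransferase, had the smallest p-values (0.97 and -0.83, adjusted p = 0.0967 and 0.113), and in mutant against null Nolc1 and Nop56, nucleolar proteins (0.74 and 0.77, both with adjusted p = 0.287). The calls of Mrto4, Srm, Eif4e and Cad in mutant against WT were lost without mutant 2 and also without mutant 3. Those of Eif4e and Cad were lost in limma-voom too. All calls of mutant against WT in this and the other lists were lost without WT 1 or without WT 2, when 0 genes in all were called (2840 and 2207 at an unadjusted p under 0.05).

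**Figure D4:**
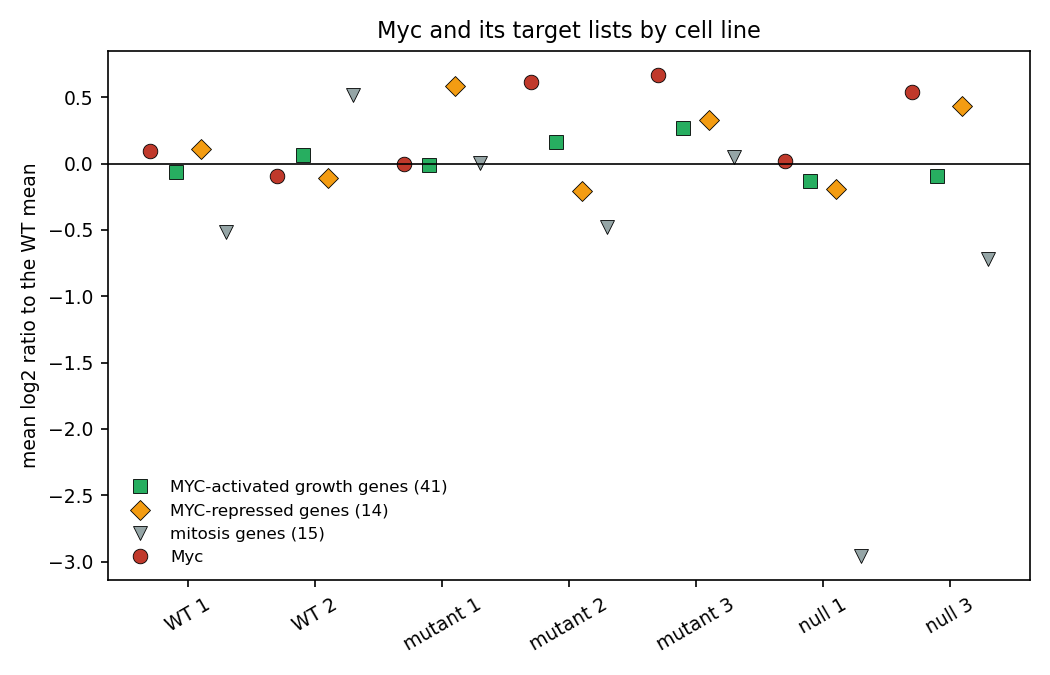
Mean log2 ratio to the WT mean (y axis) of Myc, of 41 MYC-activated growth genes, of 14 MYC-repressed genes and of 15 mitosis genes in each line. Myc is highest in mutant 2, mutant 3 and null 3, the MYC-activated list lies between -0.13 and 0.26, and the mitosis list is lowest in null 1 (-2.96).

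Of 14 genes known to be repressed by MYC, 2 rose and 2 fell in mutant against WT, beside 3.3% and 4.13% of all genes. In null against WT 1 fell, beside 0.0654% of all genes, and none was called in mutant against null. At an unadjusted p under 0.05 there were 6, 3 and 3 of the 14, beside 30.5%, 20.2% and 14% of all genes. The medians were 0.24, 0.49 and -0.02, beside 0.08, 0.06 and 0.02 over all genes tested. Col1a1 is on this list and also among the fibroblast markers, and its part in the values of the list was not tested. Those that fell, Cdkn1a (-3.62, SE 0.408, adjusted p = 0.0199) and Btg2 (-4.01, SE 0.249, adjusted p = 0.00788), are also p53 targets, and Btg2 was the 1 that fell in null against WT (-3.37, SE 0.285, adjusted p = 0.0191). That call was lost in limma-voom (adjusted p = 0.0533), with the replicate block (0.288), and without WT 1 (0.176), WT 2 (0.191) or null 3 (0.0804), at log2 fold changes of -3.51 to -3.15. Cdkn1a was at 77.6 CPM in null against 455 CPM in WT (-2.55, edgeR adjusted p = 0.0871), and only DESeq2 called it there (adjusted p = 9.12e-07). Those that rose were Cdkn1b, the cell cycle inhibitor p27 (1.19, SE 0.212, adjusted p = 0.0321), and Gas1, a growth arrest protein (4.67, SE 1.02, adjusted p = 0.0450). In mutant against WT the calls of Cdkn1a, Cdkn1b and Gas1 were lost without mutant 2 and also without mutant 3. That of Gas1 was lost without mutant 1 and in limma-voom too, while Btg2 stayed called in all of these. Cdkn1b was at 42.7 and 36.6 CPM in WT, 73.4, 108 and 89.6 CPM in mutant, and 76.5 and 65.5 CPM in null lines, without overlap between WT and the p53-altered lines. Gas1 was at 3.13 and 7.39 CPM in WT, 112, 168 and 115 CPM in mutant, and 4.63 and 42.1 CPM in null lines, so that null 1 was at the WT level. The fibroblast markers stood at mean log2 ratios of 6.83, 0.52 and 5.25 for mutant 1, 2 and 3 and of 0.32 and 6.41 for null 1 and null 3, and their part in the Gas1 values was not tested.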

How the data were processed

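Libraries were made with a stranded mRNA kit from cells grown on plastic, per the labels' protocols. The authors deposited 1 table of raw counts by gene name, with STAR 2.5.1b and build mm9 named in the submitters' processing notes. How reads were counted, with which strand setting and annotation, is not given in the sources used here. Of 24047 names, 92 spike-ins at 0 counts were left out. Groups follow the sample titles.

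One fit in R 4.3.3 with edgeR 4.0.16 took all 7 libraries (quasi-likelihood F test in its legacy form, TMM, filter by group, Benjamini-Hochberg over 13768 genes, threshold 0.05), after the code was tested on simulated data. Standard errors come from the fold change and F. Alternatives were DESeq2 1.42.0, limma 3.58.1, other factors, filters and forms, 2-group fits, the replicate number as a block, and each line left out. Lines of 1 group differed by more than sampling noise (chi-square over its degrees of freedom, 55.9 to 234). Exon lengths are those of GENCODE M21, and the longest transcript was an alternative chosen after seeing the data.

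Members, lists and the naming rule were chosen with earlier results of these data known. The rule named all members, up to 4 called genes of each list and comparison by p (where none was called, the 2 of smallest p), and Mycl, Mga, Mlxip, Mlxipl, Odc1, Ncl, Cad, Cdkn1a, Txnip and Arrdc4 from background knowledge. Prelid1, Psmc3ip, Pklr and the markers are given beside results they touch. One gene the rule named is not reported here.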

Additional observations from a re-analysis of the deposited data

Results flagged for a closer look

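For 2 genes of the wider pathway every mutant line lay on one side of both WT lines and every null line on the other. They were 2 of 35 genes searched, some of which were chosen by their p in these comparisons, and 1.48% of all 13768 genes tested had the same pattern. Huwe1, a ubiquitin ligase that acts on MYC, was at 706 and 526 CPM in WT, 391.9, 375 and 381 CPM in mutant, and 745 and 755 CPM in null lines. The difference between mutant and null lines was -0.97 on the log2 scale (SE 0.172, edgeR adjusted p = 0.258), and DESeq2 called it (adjusted p = 7.92e-06). Ruvbl1, an ATPase of MYC co-activator complexes, was at 31.87 and 31.83 CPM in WT, 36.7, 45.8 and 51.5 CPM in mutant, and 25.5 and 31.82 CPM in null lines, so null 3 was level with WT. The difference between mutant and null lines was 0.64 (SE 0.212, edgeR adjusted p = 0.301).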

How the results depend on the processing

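The number of members called was 0 in every setting except DESeq2, which called 1 in each comparison. The number of genes called depended on the setting far more. In mutant against WT (1022) it was 3198 with DESeq2, and 0 to 1420 when 1 line was left out. In null against WT (19) it was 77 with no filter, 1549 with DESeq2, 0 with limma-voom, 58 with the newer quasi-likelihood form and 0 to 55 when 1 line was left out. In mutant against null (0) it was 1 with RLE factors, upper-quartile factors, the filter of 5 CPM or the newer form, 2 with no filter, 604 with DESeq2 and 0 to 22 when 1 line was left out. Between lines of different groups with the same replicate number, deviations from the group mean correlated at -0.41 to 0.14. With 2 or 3 lines per group these values are shaped by the centring, so they cannot show whether the lines were paired. With the replicate number as a block 0 genes were called in each comparison (2887, 1454 and 1492 at an unadjusted p under 0.05).

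Some log2 fold changes changed sign, none of them of a called gene. With the replicate block, Mycn was -0.17 and Arrdc4 -0.092 for mutant against WT, Mxd1 -0.014 and Mxd4 0.031 for null against WT, and Mxd4 -0.13 for mutant against null. Mxd4 in mutant against null was also -0.016 with upper-quartile factors, -0.0041 with the filter of 5 CPM and -0.020 with limma-voom. Leaving out 1 line at a time gave, for mutant against WT, -0.33 (without mutant 2) to 0.75 for Mycn, -0.0079 (without mutant 2) to 0.38 for Max and -0.073 (without mutant 3) to 0.12 for Mlx. For null against WT the ranges were -0.61 (without null 1) to 0.68 for Mxd1, -0.72 to 0.35 (without WT 1) for Mxi1, -0.15 (without null 1) to 0.38 for Mlx and -0.042 (without WT 1) to 0.19 for Mlxip. For mutant against null they were -0.071 (without null 1) to 0.44 for Myc, -0.26 (without mutant 2) to 0.32 for Mxd4, -0.34 to 0.19 (without null 1) for Mlx and -0.41 (without null 1) to 0.75 for Mga. The cause was not tested. With the longest transcript as length, Mxi1 was at 7.97 CPM per kb in mutant lines. Mycn (1 to 347 counts) and Mxd3 (6 to 143 counts) had the fewest counts of the members.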
